A study of Mus musculus with 4 samples.

Results

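The genes described here are 36 regulators of the cell cycle and of the meiotic divisions. They were taken by name, with earlier results of these data known. They were followed in whole testes of 8-week-old male mice, in 2 wild type and 2 Taf7l knockout samples, each hybridised to 1 Affymetrix array. Both genotypes are labelled C57BL/6J, and the series design calls the wild type mice littermates of the mutants. Taf7l, an X-linked gene active in germ cells, encodes a relative of Taf7, a subunit of the general transcription factor TFIID. The labels name the mutation no further than knockout or mutant and do not say whether samples were pooled, and for the second knockout array the title gives replicate 2 but the description replicate 1. The p-values below therefore cover array-to-array spread alone, part of which may be technical.

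Of the 36 genes, 35 had at least 1 probe set named for that gene alone, 73 probe sets in all out of 45037 for mouse sequences. Ccnb1 had none and was not analysed here. A probe set was kept when its mean signal over the 4 arrays reached 45.8, the median over mouse probe sets, and was counted as dim otherwise. That left 59 probe sets of 33 genes, of the 12231 named genes that passed it, and Ccnb3 and Cdc25b were under it. The probe set with the brightest mean signal stands for each gene and is called the leading one below, and a difference is the mean log2 signal of the knockout minus that of the wild type. The limma test ran over all 22519 kept probe sets, and a probe set was called at a Benjamini-Hochberg adjusted p under 0.05. Of these kept probe sets, 1.39% were called, and 0.941% were called lower in the knockout.

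Progress through the cell cycle is driven by kinases of the Cdk family, each switched on by a cyclin. D and E cyclins with Cdk4, Cdk6 and Cdk2 carry a cell from G1 into S phase, and A and B cyclins with Cdk1 carry it into division. Wee1 holds Cdk1 off and the Cdc25 phosphatases release it. The anaphase-promoting complex, with its activator Cdc20 or Fzr1, then marks securin and B cyclins for destruction, which frees separase to part the chromosomes. In the testis the mitotic divisions are those of spermatogonia and of some somatic cells, while spermatocytes pass through a pair of meiotic divisions with variants of their own, among them cyclin A1 and Aurora C. In whole tissue, fewer cells of a type and less RNA per cell cannot be told apart.

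Promoter windows are shown for 5 of the genes because the results turn on them: Plk1, Cdk1 and Ccna1, whose leading probe sets were lower in both knockout arrays than in both wild type arrays, Pttg1, which held the single called probe set, and Cdk6, which was higher at both of its kept probe sets. Each window runs 5′ to 3′ from 250 bases before to 50 bases after the start of the gene, from RefSeq on GRCm38.p6. Capitals mark every match, on either strand, to 7 motifs. They are the TATA box with the letters TATAAA, the CCAAT box, the CHR element of division genes in its forms TTTGAA and, as a variant of it, TTCGAA, a MYB site with the letters GGCAGTT, an E2F-like site with the letters TTTNNCGC, and the GC box with the letters GGGCGG.
Plk1, chr7:122159185-122159484, plus strand: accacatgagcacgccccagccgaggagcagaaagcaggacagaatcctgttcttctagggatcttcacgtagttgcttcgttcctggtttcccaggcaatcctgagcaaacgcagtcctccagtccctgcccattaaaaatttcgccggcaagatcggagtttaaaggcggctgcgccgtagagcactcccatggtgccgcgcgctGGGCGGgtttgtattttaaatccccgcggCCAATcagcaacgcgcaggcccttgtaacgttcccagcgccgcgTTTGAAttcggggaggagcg
Cdk1, chr10:69352863-69353162, minus strand: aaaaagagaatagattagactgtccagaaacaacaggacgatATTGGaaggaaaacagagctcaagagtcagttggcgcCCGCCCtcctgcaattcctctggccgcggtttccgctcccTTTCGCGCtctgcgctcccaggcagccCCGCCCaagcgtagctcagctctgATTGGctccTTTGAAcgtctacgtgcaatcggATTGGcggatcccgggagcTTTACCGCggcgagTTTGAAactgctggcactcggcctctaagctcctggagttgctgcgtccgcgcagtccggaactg
Ccna1, chr3:55055006-55055305, minus strand: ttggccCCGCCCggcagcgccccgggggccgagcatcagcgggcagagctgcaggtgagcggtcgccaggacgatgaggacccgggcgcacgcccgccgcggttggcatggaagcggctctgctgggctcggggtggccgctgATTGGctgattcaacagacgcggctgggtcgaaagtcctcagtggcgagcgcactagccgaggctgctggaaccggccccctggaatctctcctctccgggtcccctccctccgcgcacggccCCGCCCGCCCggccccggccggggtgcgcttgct
Pttg1, chr11:43425932-43426231, minus strand: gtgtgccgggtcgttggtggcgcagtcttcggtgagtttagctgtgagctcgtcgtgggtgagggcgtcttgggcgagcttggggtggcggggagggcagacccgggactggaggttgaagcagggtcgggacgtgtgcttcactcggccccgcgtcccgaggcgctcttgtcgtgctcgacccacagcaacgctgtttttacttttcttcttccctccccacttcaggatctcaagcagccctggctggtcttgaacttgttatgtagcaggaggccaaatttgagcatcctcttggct
Cdk6, chr5:3343643-3343942, plus strand: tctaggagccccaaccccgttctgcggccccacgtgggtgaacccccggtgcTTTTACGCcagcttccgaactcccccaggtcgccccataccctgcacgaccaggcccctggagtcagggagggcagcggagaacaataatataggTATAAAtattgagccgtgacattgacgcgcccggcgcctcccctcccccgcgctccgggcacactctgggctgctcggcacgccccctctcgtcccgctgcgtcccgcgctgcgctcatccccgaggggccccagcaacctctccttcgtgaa

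The Cdk1 window held 3 CCAAT matches, 2 CHR matches, 2 E2F-like matches and 2 GC boxes, with the CHR match nearest the start at bases -15 to -10. In Plk1 the CCAAT match lay at bases -14 to -10, the CHR match at bases 31 to 36 and the GC box at bases -43 to -38. Ccna1 had 1 CCAAT match and 3 GC boxes, of which 2 overlap each other, and no CHR match. No listed motif was found in the Pttg1 window. Cdk6 had 1 TATA match, at bases -103 to -98, and 1 E2F-like match, at bases -198 to -191. Windows were found for 29 of the 36 genes, and those for Ccna2, Ccnd1, Ccne2, Cdc25c, Wee1, Aurkb and Incenp are not shown or counted. A CCAAT match was present in 21 of the 29 genes (72.4%), against 37.4% of all 32851 windows in the table. The CHR form TTTGAA was present in 10 (34.5%), against 17.9% of all windows, and the GC box in 22 (75.9%), against 35.7%. For the E2F-like site the counts were 5 genes (17.2%) against 5.17%, and for TTCGAA 3 genes (10.3%) against 1.56%. The TATA box was found in 1 gene (3.45%), Cdk6, against 13.6% of all windows, and the MYB site in 1, Ccnb3, against 4.12%. Of the 10 genes with TTTGAA, 9 had a lower leading probe set in the knockout and 1, Cks1b, a higher one. Of the 26 measured genes with a window, 17 were lower. The 9 are all division genes in the split by stage given below, in which 19 of 23 division genes were lower. After quantile normalization 5 of the 10 were lower and 5 higher. Measured genes with a CCAAT match were lower in 15 cases and higher in 4, and those with a GC box in 12 and 8. After quantile normalization these counts were 11 and 8 for CCAAT, and 9 and 11 for the GC box. A match is a description of letters in the window and was not tested.

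In the knockout testis no leading probe set of the 33 measured genes was called, against 1.73% of leading probe sets over all 12231 named genes. A single one of the 59 kept probe sets was called, for securin (Pttg1). At an unadjusted limma p under 0.05, 13 leading probe sets were lower and 3 were higher, where 20.4% and 7.48% of all named genes passed that mark in those directions. Those shares are not matched for signal, and most of the 33 genes are bright. A fit limited to the 75th percentile of mean signal and above kept 28 of them. In it 4177 of 11260 probe sets passed that mark in either direction, against 5572 of 22519 in the main fit. The leading probe set was lower in 22 of the 33 genes, and over all named genes in 60.7%. The median difference of the 33 genes was -0.07, and that of all named genes was -0.05. After quantile normalization the 33 genes had a median of 0.04 with 16 lower, and all named genes had -0.00 with 50.4% lower. The small shift of the list as a whole thus has no settled direction. The groups did not overlap at the leading probe set in 22 genes (66.7%), against 58.3% over all named genes, 15 of them lower (38.7% over all) and 7 higher (19.6% over all). The plot of leading probe sets by array shows which genes lay on either side.

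**Figure D1:**
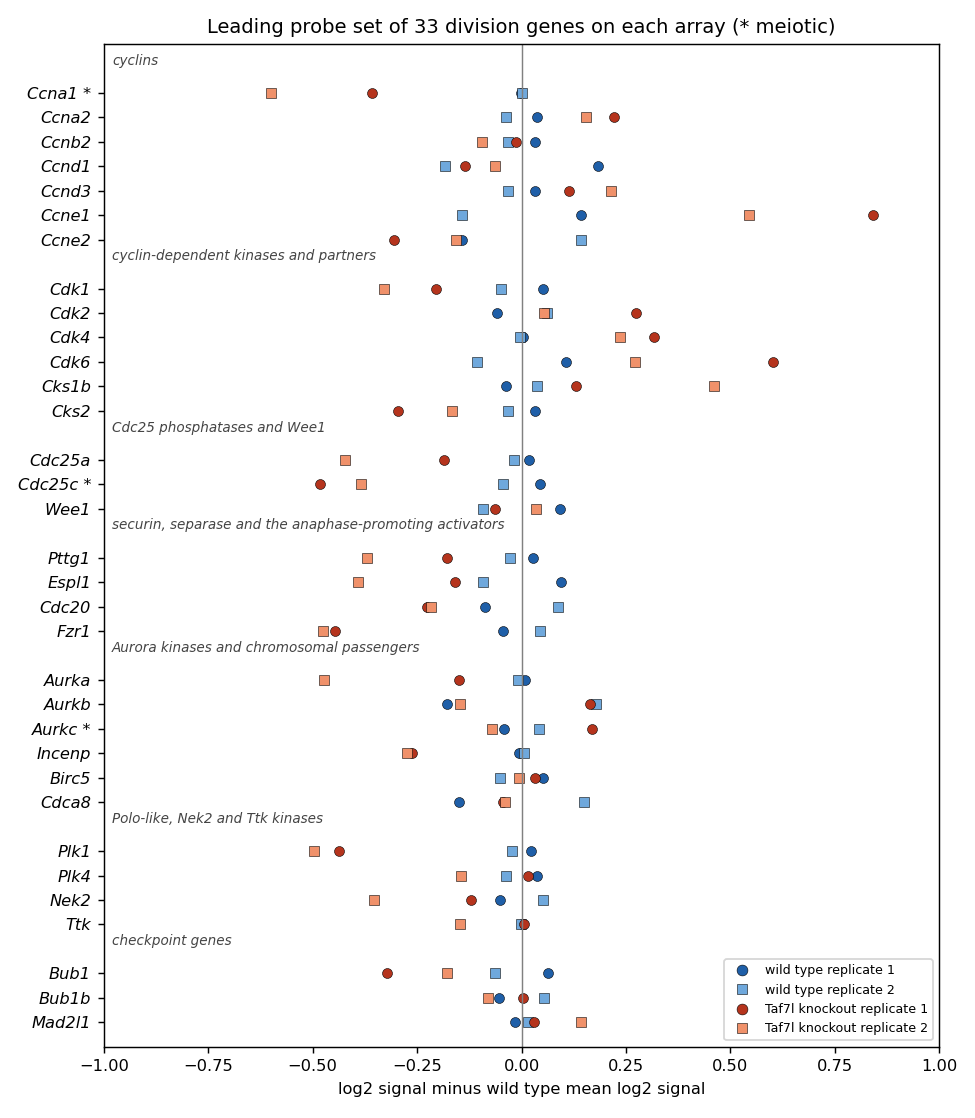
Log2 signal on each of the 4 arrays minus the wild type mean log2 signal (x axis), for the leading probe set of the 33 measured genes grouped by role (y axis); circles are replicate 1 and squares replicate 2, blue wild type and red knockout. Both knockout points lie left of both wild type points in 15 genes and right of them in 7.

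The 4 meiotic genes differed among themselves. Cyclin A1 (Ccna1), the A cyclin that male germ cells need for the first meiotic division, had signals of 4273 and 4286 in wild type and 3339 and 2823 in the knockout. Both knockout values were below both wild type values, with the second knockout array lowest. The mean went from 4280 ± 9.07 to 3081 ± 365 (SD, n = 2 each), 1.39-fold lower (log2 -0.48, SE 0.093, limma adjusted p = 0.066), which missed the threshold. Cdc25c, a phosphatase that activates Cdk1, had 610 and 573 in wild type and 423 and 453 in the knockout at its leading probe set. The groups did not overlap there (log2 -0.43, SE 0.086, limma adjusted p = 0.068) or at its second probe set, which had 322 and 334 against 230 and 224 (log2 -0.53, limma adjusted p = 0.054).

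Aurora C (Aurkc), the chromosomal passenger kinase of meiosis, had 676 and 717 in wild type and 783 and 663 in the knockout. The knockout arrays lay on either side of the wild type ones, so the groups overlapped (log2 0.05, SE 0.11, limma adjusted p = 0.82), and the 95% interval of the difference ran from -0.22 to 0.32. Without knockout replicate 1 the Aurkc difference was -0.07. Cyclin B3 (Ccnb3), a cyclin of early spermatocytes that mouse oocytes need to leave the first meiotic division, had 18.6 and 24.2 in wild type and 31.7 and 27.6 in the knockout. All 4 values lie under the filter at 45.8, so their order is not read and the gene was not tested.

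The meiotic and the mitotic genes were set against each other within each array, which removes any common scaling factor. The mean log2 signal of the 3 kept meiotic genes minus that of the 30 kept mitotic genes was -0.34 and -0.33 in wild type and -0.53 and -0.59 in the knockout. The meiotic genes thus stood lower against the mitotic ones on both knockout arrays, by 0.23 on average, and by 0.23 after quantile normalization. For Ccna1 and Cdc25c without Aurkc, the contrast went from 0.08 and 0.05 to -0.33 and -0.33. For Aurkc alone it was -1.18 and -1.08 in wild type and -0.93 and -1.10 in the knockout. The medians of the differences were -0.43 for the 3 meiotic genes and -0.07 for the 30 mitotic ones. All 3 meiotic genes act in division, while the 30 mitotic ones include 10 genes of G1 and S entry with a median of 0.18. Of the 30, 20 were lower and 10 higher, with Plk1 at -0.47 and Fzr1 at -0.46, close to Ccna1 and Cdc25c. The 23 measured division genes, which include the 3 meiotic ones, had a median of -0.23. No within-array contrast was computed of the meiotic genes against the division genes of the mitotic list alone. The plot by class draws the differences of both side by side. How much of the gap of 0.23 comes from the G1 and S genes was not tested. With 2 arrays a group, an exact permutation test cannot go below p = 0.333, and no test was made of a score over chosen genes.

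The genes were also split by the stage of the cycle in which they act, a grouping drawn after the values were seen that carries no test. The 10 measured genes that act in G1 and at entry into S phase are the D and E cyclins, Ccna2, Cdk2, Cdk4, Cdk6, Cks1b and Cdc25a. Of them 7 were higher in the knockout and 3 lower, with a median of 0.18. One of the 7 is Ccne1, whose probe sets disagree as given below, and with its second probe set 6 of the 10 were higher and the median was 0.16. Of the other 23, grouped as division genes, 19 were lower and 4 higher, with a median of -0.23. Some genes could sit in either group, since Ccna2 and Cdc25a also act at division, Fzr1 also acts in G1 and Plk4 starts centriole duplication. Counts with these genes moved were not computed. After quantile normalization the division genes had a median of -0.13 with 13 of 23 lower, and the G1 and S genes a median of 0.28 with 3 of 10 lower. Over all named genes 60.7% were lower at the deposited scaling and 50.4% after quantile normalization. Within each array, mean log2 signal of the G1 and S genes minus that of the division genes was -1.89 and -1.95 in wild type and -1.58 and -1.56 in the knockout. It was thus 0.35 higher in the knockout, and 0.31 higher after quantile normalization. With the second Ccne1 probe set it was 0.23 higher, without Ccne1 0.29 higher, and without _s_at and _x_at probe sets 0.24 higher, alternatives chosen after the data were seen.

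**Figure D2:**
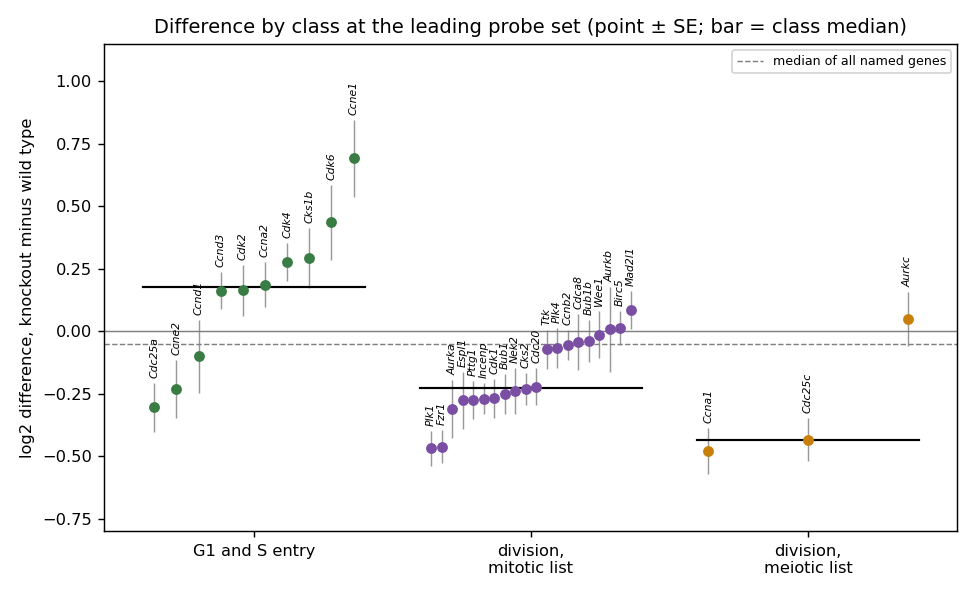
Log2 difference, knockout minus wild type (y axis), of the leading probe set of each gene, with its limma SE, for 10 genes of G1 and S entry, 20 division genes of the mitotic list and 3 of the meiotic list (x axis). Solid bars are class medians and the dashed line is the median of all named genes (-0.05). Of the 10 G1 and S genes 7 lie above 0, or 6 with the second Ccne1 probe set. Of the 23 division genes 19 lie below 0, or 13 after quantile normalization, which is not drawn. Over all named genes 60.7% were lower, or 50.4% after quantile normalization.

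Markers of other cell types also differed between the genotypes. Summed signal of 10 Sertoli cell markers was 67466 to 69934 in wild type and 84881 to 87176 in the knockout, and 8 of the 9 kept were higher. Summed signal of the 7 spermatogonial markers with a probe set was 8507 to 8995 and 10462 to 10667, with 4 of the 6 kept higher. The 4 Leydig cell markers with a probe set, all higher, summed to 14839 to 15167 and 18652 to 18733. The 8 macrophage and leukocyte markers summed to 1559 to 1639 and 1868 to 1870, with 6 of the 6 kept higher. Summed spermatocyte markers were 137161 to 139087 against 127575 to 134891, with 6 of 9 lower, and summed spermatid markers 423778 to 435928 against 391627 to 404415, with 8 of 9 lower. The spermatocyte sum includes Hspa2, which is also in the wider list given below. Hspa2 alone had 18156 and 17711 in wild type and 13748 and 14418 in the knockout. No marker of these 6 lists was at 0, and Gfra1, Fshr, Cd68 and Ptprc were under the filter. Of the kept markers, 1 each was called in the spermatocyte, Sertoli and Leydig lists, and none in the others. Over all named genes 60.7% were lower. As log2 differences the spermatocyte and spermatid sums were -0.07 and -0.11. The sums were taken at the deposited scaling and not after quantile normalization, which moved the median of the 33 genes from -0.07 to 0.04. The part of these cells in the results on G1 and division genes was not tested.

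Among the cyclins, Ccne1, a G1 to S cyclin, had the largest difference at a leading probe set, and its probe sets disagreed. The leading one had 214 and 176 in wild type and 348 and 283 in the knockout (log2 0.69, SE 0.15, limma adjusted p = 0.077). The other had 223 and 213 in wild type and 176 and 151 in the knockout (log2 -0.41, SE 0.11, limma adjusted p = 0.108). Each separated the groups, in opposite directions, and the leading one has a name ending in _x_at, which Affymetrix uses for probes that may also match other transcripts. The direction for Ccne1 is therefore not settled. Its partner gene Ccne2 had 2365 and 2881 against 2111 and 2342, lower without passing (limma adjusted p = 0.29).

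The D cyclins pair with Cdk4 and Cdk6. Ccnd3 had 1346 and 1288 in wild type and 1424 and 1526 in the knockout, with both knockout arrays above (log2 0.16, limma adjusted p = 0.25). Ccnd1 had 114 and 88.4 against 91.2 and 95.9, with overlapping groups and probe sets of both signs. Cyclin A2 (Ccna2), the A cyclin of dividing somatic cells and spermatogonia, had 247 and 234 in wild type and 280 and 268 in the knockout. Its difference of 0.19 (95% interval -0.04 to 0.42, limma adjusted p = 0.28) was in the other direction from that of Ccna1. Cyclin B2 (Ccnb2), a Cdk1 partner, had 7164 and 6842 against 6936 and 6557, with overlapping groups, and its difference of -0.05 became 0.06 under quantile normalization.

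Of the kinases that the cyclins activate, the G1 kinases were higher and Cdk1 was lower, none of them called. Cdk6 had 154 and 132 in wild type and 217 and 172 in the knockout at the leading probe set (log2 0.44, SE 0.15, limma adjusted p = 0.16). Its second probe set had 137 and 133 against 201 and 173 (log2 0.46, SE 0.11, limma adjusted p = 0.089). Both probe sets put each knockout array above each wild type array. Cdk4 had 626 and 623 against 777 and 735 at an _x_at probe set (log2 0.28, limma adjusted p = 0.108). Its other 2 probe sets differed by 0.15 and 0.14 in the same direction. Cdk2, a kinase of S phase and of meiotic prophase, had 1047 and 1138 against 1320 and 1133, with overlapping groups.

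Cdk1, the kinase of entry into division, had 2184 and 2037 in wild type and 1829 and 1678 in the knockout. Both knockout arrays were below both wild type arrays (log2 -0.27, SE 0.078, limma adjusted p = 0.12). The small Cdk-binding subunits differed in opposite directions. Cks2, which spermatocytes need to leave the first meiotic metaphase, had 15620 and 14954 against 12451 and 13611 (log2 -0.23, limma adjusted p = 0.108) and -0.18 at its other probe set. Cks1b, which helps to destroy a Cdk inhibitor at S phase, had 2299 and 2424 against 2582 and 3249 (log2 0.30, limma adjusted p = 0.22) and 0.54 at its other probe set.

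Of the enzymes that set the phosphate on Cdks, Cdc25a was lower along with Cdc25c. Cdc25a, which acts at S phase and at division, had 1405 and 1370 in wild type and 1220 and 1035 in the knockout (log2 -0.30, limma adjusted p = 0.15). Its second probe set had 1064 and 1013 against 724 and 791 (log2 -0.46, SE 0.082, limma adjusted p = 0.061). Neither set overlapped between the groups. The opposing kinase Wee1 had 914 and 806 against 822 and 880, with overlapping groups and a difference of -0.01 that became 0.08 under quantile normalization. Cdc25b had signals of 3.67 to 3.84 on all 4 arrays, under the filter, and was not tested.

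The 4 genes of chromosome separation were all lower at the leading probe set, each without overlap of the groups, as were 38.7% of all named genes. Securin (Pttg1), the inhibitor of separase, fell at 1 of its 3 kept probe sets, from 6917 and 6904 to 4629 and 4232 (1.56-fold, log2 -0.64, SE 0.065, limma adjusted p = 0.047). The leading probe set, with a name ending in _s_at for shared sequence, had 12112 and 11666 against 10504 and 9198 (log2 -0.27, limma adjusted p = 0.114). The third had 420 and 460 against 452 and 425, with overlapping groups. The called difference was -0.52 and no longer called under quantile normalization (limma adjusted p = 0.056). With any 1 array left out it lay between -0.71 and -0.58 and was not called, but no probe set in the series was called then, Taf7l included. The limma adjusted p was 0.353 and 0.297 with the first and the second wild type array set aside, and 0.152 and 0.085 with the first and the second knockout array set aside.

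Fzr1, the activator of the anaphase-promoting complex in late division and G1, had 2283 and 2430 in wild type and 1728 and 1695 in the knockout. The knockout arrays lay close together and well below (1.38-fold, log2 -0.46, SE 0.067, limma adjusted p = 0.051). Cdc20, the activator at anaphase, had 6283 and 7093 against 5711 and 5747 at an _x_at probe set (log2 -0.22, limma adjusted p = 0.16). Its other 2 probe sets differed by -0.13, with overlapping groups, and by -0.14, without overlap. Separase (Espl1), the protease that cuts cohesin, had 1238 and 1088 against 1040 and 885 (log2 -0.27, limma adjusted p = 0.22).

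Of the Aurora kinases and the chromosomal passenger complex, which corrects attachments and guides cytokinesis, Aurka and Incenp were lower without overlap. Aurora A (Aurka), the spindle pole kinase, had 3576 and 3537 in wild type and 3207 and 2561 in the knockout, with the knockout arrays far from each other (log2 -0.31, SE 0.12, limma adjusted p = 0.18). Incenp, the scaffold shared by Aurora B and Aurora C, had 1546 and 1560 against 1295 and 1284 at an _x_at probe set (log2 -0.27, SE 0.063, limma adjusted p = 0.085). Its second kept probe set differed by -0.16. Aurora B (Aurkb) had 236 and 301 against 299 and 241, survivin (Birc5) 2977 and 2768 against 2936 and 2860, and borealin (Cdca8) 1713 and 2107 against 1841 and 1847. At the leading probe set these 3 overlapped between the groups and lay between -0.04 and 0.01. The sign for Aurkb turned under median centring and that for Cdca8 under quantile normalization. The leading Aurkb probe set is an _x_at one, and its other kept one was lower without overlap (log2 -0.28, limma adjusted p = 0.31). The other Cdca8 probe sets differed by -0.11, with overlap, and by -0.12, without it.

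Plk1, the Polo-like kinase of spindle assembly and chromosome separation, had 1303 and 1261 in wild type and 947 and 909 in the knockout. Both knockout arrays were below both wild type arrays by more than the spread within either group (1.38-fold, log2 -0.47, SE 0.070, limma adjusted p = 0.051). Nek2, a centrosome kinase, had 7712 and 8276 against 7342 and 6258 (log2 -0.24, limma adjusted p = 0.20), and 3072 and 3000 against 2383 and 2400 at its second probe set (log2 -0.34, SE 0.058, limma adjusted p = 0.056). Plk4, which starts centriole duplication, disagreed among its probe sets, at -0.07, -0.38 and 0.14, and the leading one became 0.06 under quantile normalization. Ttk, the kinase at the top of the spindle checkpoint, had 1986 and 1982 against 1992 and 1790, with overlapping groups, and its difference of -0.07 became 0.05 under quantile normalization.

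Of the checkpoint genes, Bub1, a kinetochore kinase, had 5740 and 5258 in wild type and 4395 and 4853 in the knockout (log2 -0.25, SE 0.079, limma adjusted p = 0.14), without overlap. Its second probe set, at -0.11, overlapped. Bub1b, a checkpoint inhibitor of Cdc20, had 667 and 718 against 694 and 654, with overlapping groups and a difference of -0.04 that became 0.04 under quantile normalization. Mad2l1, its partner in the checkpoint complex, had 937 and 956 against 967 and 1045, a little higher in both knockout arrays (log2 0.09, limma adjusted p = 0.54).

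The probe sets of 1 gene did not always go the same way, as the plot of probe sets by gene shows. Of the 19 genes with at least 2 kept probe sets, 12 had differences of 1 sign and 7 had both signs. Those with both signs were Ccnd1, Ccne1, Wee1, Aurkb, Plk4, Nek2 and Bub1b. In 9 genes the leading probe set had a name ending in _s_at or _x_at, namely Ccne1, Cdk4, Cks2, Pttg1, Cdc20, Aurkb, Incenp, Cdca8 and Nek2. With such probe sets set aside, a choice made after the data were seen, 23 of 32 genes were lower, Ccne1 turned to -0.41, and Pttg1 was represented by its called probe set. The spread between replicate arrays was smaller than most of these differences. Over the 33 genes the median absolute difference between the genotypes was 0.23, against 0.088 between the wild type arrays and 0.13 between the knockout arrays, where all named genes had 0.145, 0.089 and 0.11.

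**Figure D3:**
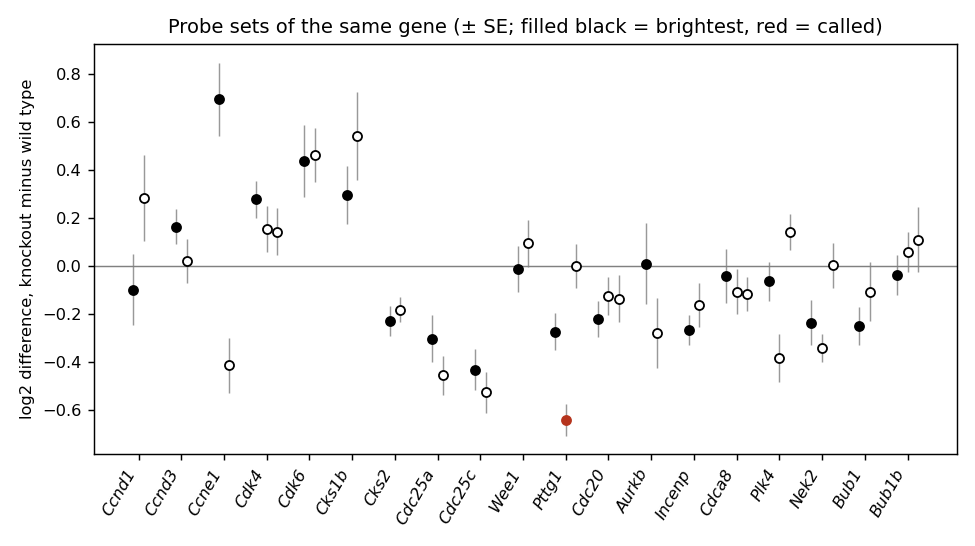
Log2 difference, knockout minus wild type, with its limma SE (y axis), for every kept probe set of the 19 genes that have at least 2 (x axis). Filled black points are the brightest probe set of the gene, open points the others, and the red point is the called Pttg1 probe set at -0.64; the Ccne1 probe sets lie at 0.69 and -0.41.

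A wider list of 88 genes of the same machinery, 81 of them measured, was read beside the 36. Of the 81, 2 had a called lower probe set, Spdya and Smc2, and 1 a called higher one, Cdkn1c, where 1.45% and 0.67% of all named genes had one. The median difference was -0.09, with 50 of 81 lower, and 0.01 after quantile normalization. Of the 8 sublists, that of the meiotic divisions had a lower leading probe set in all 6 measured genes (median -0.29), with overlapping groups in 2 of them, Ccnb1ip1 (-0.20) and Tesmin (-0.02). After quantile normalization 5 of these 6 were lower (median -0.20). In the sublist of the anaphase-promoting complex 8 of 15 were higher (median 0.02). Speedy A (Spdya), a non-cyclin activator of Cdk2 that acts at the telomeres of meiotic chromosomes, fell from 7107 and 6700 to 4302 and 4361 (1.59-fold, log2 -0.67, SE 0.058, limma adjusted p = 0.039). Its second probe set fell from 2278 and 2267 to 1415 and 1548 (1.53-fold, log2 -0.62, limma adjusted p = 0.047). Both probe sets put the knockout arrays far below the wild type arrays.

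Cdkn1c, which encodes the Cdk inhibitor p57, rose from 1906 and 2043 to 3889 and 3757 at its only probe set (1.94-fold, log2 0.95, SE 0.067, limma adjusted p = 0.024). The other Cdk inhibitors lay on both sides of 0. Cdkn2b had 406 and 475 against 622 and 630 (log2 0.51, limma adjusted p = 0.069). Cdkn1a, chosen after its values were seen, had 93.5 and 96.3 against 161 and 128 (log2 0.60, limma adjusted p = 0.081). The remaining 4 of the 7 measured were lower. Smc2, the core subunit of condensin, fell at 1 of its 5 probe sets, from 678 and 609 to 401 and 388 (log2 -0.70, limma adjusted p = 0.048), while its leading one differed by -0.09 with overlapping groups, and by 0.03 under quantile normalization.

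Genes that did not pass the test included Anapc5, a subunit of the anaphase-promoting complex. Its leading probe set had 1568 and 1471 in wild type and 2218 and 1946 in the knockout (log2 0.45, limma adjusted p = 0.068), and all 6 of its probe sets were higher in the knockout without overlap. Ube2s, which extends ubiquitin chains on targets of that complex, had 17219 and 16071 against 12636 and 13080 (log2 -0.37, limma adjusted p = 0.051). Haspin, a kinase of centromeric histone H3, had 18196 and 17216 against 13508 and 14007 (log2 -0.36, limma adjusted p = 0.051). Mybl1, which encodes the A-MYB regulator of spermatocyte transcription and was chosen after its values were seen, had 490 and 401 against 324 and 291 (log2 -0.53, limma adjusted p = 0.089) and overlapped between groups at its second probe set. Hspa2, a chaperone that spermatocytes need for Cdk1 activity, had 18156 and 17711 against 13748 and 14418 (log2 -0.35, limma adjusted p = 0.051), without overlap.

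Of the other sublists the 2 genes with the smallest p are given, none of which passed the limma test. That their groups do not overlap follows from that choice. Of the kinetochore genes, Nuf2 differed by -0.37 and Spc25 by -0.34, both parts of the complex that holds microtubules. Of the condensin subunits, Ncaph differed by 0.49 at an _x_at probe set and by 0.19, with overlapping groups, at its other one. Ncapd2 differed by -0.38, and its second probe set by -0.00. In the spindle and cytokinesis sublist Kif20a and Kif2c differed by -0.30 and -0.19. Ccnh, the cyclin of the Cdk-activating kinase, differed by -0.32. Among replication genes Pcna, the sliding clamp, differed by -0.23 and Mcm5, a helicase subunit, by 0.28, and Mcm5 stood at -0.00 once _s_at and _x_at probe sets were set aside. The adjusted p of these 9 genes lay between 0.066 and 0.110.

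**Figure D4:**
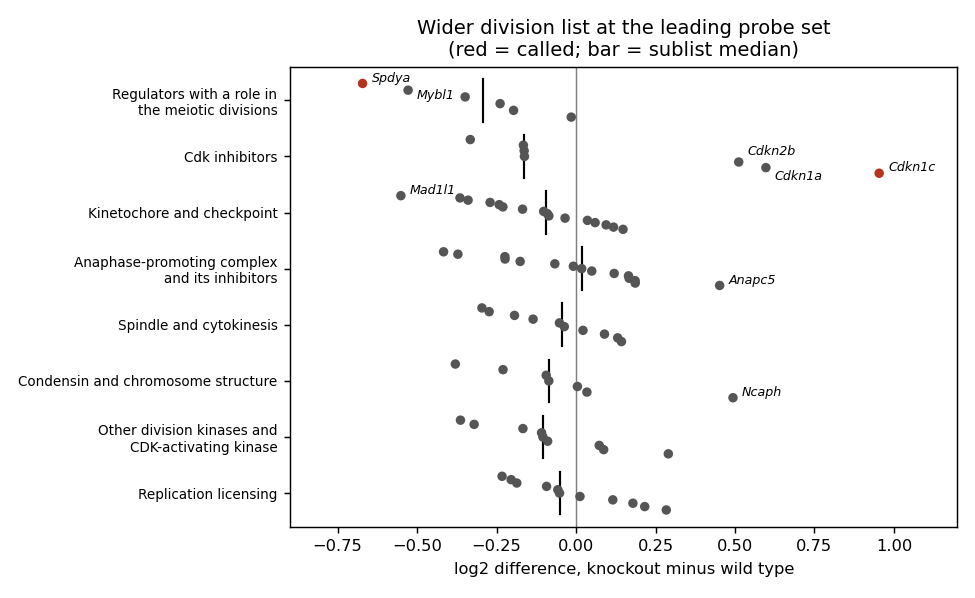
Log2 difference, knockout minus wild type (x axis), at the leading probe set of the 81 measured genes of the wider list, in 8 sublists (y axis). Red points are called, bars are sublist medians; Spdya stands at -0.67 and Cdkn1c at 0.95.

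With any 1 of the 4 arrays set aside, the calls for Spdya, Cdkn1c and Smc2 were lost with all others in the series, and none of these called probe sets changed sign. The limma adjusted p of Cdkn1c and of both Spdya probe sets had the same 4 values as that of the called Pttg1 probe set, from 0.353 to 0.085, and that of the called Smc2 probe set ran from 0.353 to 0.089. Under quantile normalization Cdkn1c (limma adjusted p = 0.021) and the leading Spdya probe set (0.046) were called, and the second Spdya probe set (0.054) and Smc2 (0.056) were not. Of the checks on the whole series, Taf7l fell from 829 and 818 to 80.6 and 72.5 (log2 -3.43, limma adjusted p = 0.0033), at a probe set whose position against the mutated sequence the labels leave unstated. The actin control, read at its 3′ and its 5′ end, gave ratios of 2.09 and 2.0 in wild type and 2.42 and 2.18 in the knockout, and the Gapdh control gave 1.04 and 0.99 against 0.927 and 0.938, so the controls differed in opposite directions. Their part in the results was not tested. Adipocyte markers summed to 844 and 3968 in wild type and 945 and 1653 in the knockout, and epididymis markers to 334 and 744 against 263 and 278, so that wild type replicate 2 stood apart in both.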

How the data were processed

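The authors deposited 1 linear intensity (probe set signal) per probe set and array, made with MAS5 per the submitters' processing notes. No source used here gives its version or scaling target, so each fold is relative to an unknown scaling. The lowest signal was 1.72 to 1.73 on every array, which is unusual for MAS5, so the method behind the signals is uncertain. Signals were log2-transformed as deposited (offset 0) and not renormalized. Gene symbols came from the platform annotation, updated by gene ID through RefSeq (GRCm38.p6), and probe sets with several genes were dropped. The genotypes were compared in limma 3.58.1 under R 4.3.3 (lmFit, eBayes with a trend) by a two-sided test on a design that held genotype alone, with 2 residual and 3.17 prior degrees of freedom. The fit was also run on simulated data with planted changes larger than any difference of the listed genes, so that run does not cover changes of their size. Precision is limited by 2 arrays a group. The genes, the wider list and the markers were chosen with earlier results of these data known. The rule for values on every array took the 4 meiotic genes, any with a called probe set and the largest difference of each role, and the remaining genes were added to account for all. Of the wider list it took called genes and up to 2 per sublist with the smallest p. Alternative settings covered quantile normalization and median centring, an offset of 16, other filters, no trend, the mean of probe sets, a replicate block and leaving out each array. Replicate numbers were not used as a pairing in the main fit. The correlation of deviations between arrays of the same number was 0.03, which does not settle whether the arrays were paired.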

Additional observations from a re-analysis of the deposited data

How the results depend on the processing

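The number of arrays limits every value, and no setting makes up for 2 arrays a group. The 1 called probe set of the 36 genes became 0 under quantile normalization, with no filter and with no variance trend, 2 with the replicate block, 3 with median centring, 4 with the mean of probe sets and 11 with the 75th percentile filter, which tested 11260 probe sets in place of 22519. Calls over the whole series moved too, from 312 of 22519 probe sets to 148 under quantile normalization and 36 with no variance trend. They rose to 541 with the replicate block and 646 with median centring. With the mean of probe sets 729 of 14751 were called, and with the 75th percentile filter 2375 of 11260. The 3 called genes of the wider list became 0 with no filter or no trend. They became 6 with median centring or the mean of probe sets, and 23 with the 75th percentile filter. Both counts were 0 without any 1 array. With no filter limma called none of 45037 probe sets, 6192 of them at an unadjusted p under 0.05. In the fits with 1 array left out it called none either, with 3084 to 5500 at that mark, where the remaining array of the reduced group borrows the spread of the other. The median of the 33 genes was -0.226 with the 75th percentile filter and 0.039 after quantile normalization. That of the mitotic genes was -0.221 and 0.043. Without 1 array these medians ran from -0.169 to -0.063 and from -0.146 to -0.054, at -0.169 and -0.130 without wild type replicate 1. The meiotic median was -0.192 with no filter, which lets in Ccnb3, and its range without 1 array was -0.477 to -0.358. The count of lower genes was 16 to 24 and that of groups apart 19 to 30 over all settings.

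The replicate block kept 2 calls against 1 because Ccne1 passed (adjusted p = 0.049), and it changed no sign. Whether the numbers stand for a pairing is not given by the labels. Signs turned for differences that were small in the reported setting, except those of Ccne1 and Mcm5. Under quantile normalization Ccnb2 was 0.059, Wee1 0.084, Cdca8 0.074, Plk4 0.064, Ttk 0.052, Bub1b 0.039 and Smc2 0.028. Aurkb was -0.001 under median centring. With the mean of probe sets Ccnd1 was 0.092, Wee1 0.040, Aurkb -0.136 and Bub1b 0.043. Without _s_at and _x_at probe sets Ccne1 was -0.415 and Mcm5 -0.003. With 1 array left out at a time, Ccnd1 ran from -0.282 to 0.082, Wee1 from -0.105 to 0.077, Aurkb from -0.169 to 0.187, Aurkc from -0.071 to 0.170, Birc5 from -0.039 to 0.066, Cdca8 from -0.192 to 0.107, Plk4 from -0.146 to 0.015, Ttk from -0.148 to 0.006 and Bub1b from -0.091 to 0.016. The sign turned without wild type replicate 1 for Ccnd1, Wee1 and Aurkb, without wild type replicate 2 for Birc5, Cdca8 and Bub1b, without knockout replicate 1 for Wee1, Aurkb, Aurkc and Birc5, and without knockout replicate 2 for Plk4, Ttk and Bub1b. The cause of these turns was not tested. Of 800 recomputed differences of single probe sets or genes, 696 kept sign and side of the threshold, 38 lost a call, 39 gained one and 27 turned.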
